A study of Rattus norvegicus with 4 samples.

Results

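The cytosolic ribosomal protein genes were examined in neonatal rat ovaries cultured with or without glial cell line-derived neurotrophic factor (GDNF). Members were the genes whose symbol follows the Rpl or Rps naming pattern with a number, plus Rplp0 and Rpsa, and that had an array probe set annotated to that symbol alone. A probe set is the group of short oligonucleotides on the array that measures 1 transcript. The rule found 55 probe sets for 48 genes, among 14217 genes with a probe set of their own symbol and 31042 probe sets on the array other than control probe sets. By their names, 33 of the 48 genes belong to the large subunit family and 15 to the small subunit family. Where a gene had several probe sets, the brightest by mean over the 4 arrays was used. Rplp1 and Rps19, whose probe sets also carry the symbols of copies, are not members.

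Cytosolic ribosomal proteins assemble with ribosomal RNA in the nucleolus into the small subunit, which reads the messenger RNA, and the large subunit, which forms the peptide bond. Their transcripts are among the most abundant in growing cells, and many begin with a 5′ terminal oligopyrimidine (TOP) tract that places their translation under the control of the kinase mTOR. In the ovary, signalling through mTOR and S6 kinase to the ribosomal protein encoded by Rps6 accompanies the activation of primordial follicles, the resting pool of oocytes enclosed by flattened pre-granulosa cells. The mRNA level measured here does not show translation or phosphorylation.

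Gene expression had been measured on Affymetrix rat arrays in 2 groups of 2 samples. The GDNF samples were ovaries of 4-day-old rats kept in whole-organ culture for 2 days with GDNF, a ligand of the receptor tyrosine kinase Ret. The control samples were ovaries of the same age and culture time with no added factor. Titles and descriptions set the groups apart, while the treatment text of the GDNF samples repeats that of the controls. Each sample was RNA from a pool of 6 to 10 ovaries, and ovaries of 1 animal never shared a group. The medium of both groups held insulin at 200 ng/ml, transferrin at 27.5 µg/ml, ascorbic acid at 0.05 mg/ml, albumin supplements and antibiotics, so the controls were not free of a growth-promoting hormone. The dose of GDNF and the strain are not given in the sources used here. Whether replicates differ in litter or in day of culture is not stated, and p-values therefore cover just the spread among these 4 samples, which may be technical.

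The values are MAS5 signals, a linear measure of array brightness. All 6 oocyte markers with a probe set of their own symbol (of 9 listed) passed the filter on low signals, as did all 6 granulosa markers, with Ooep and Amhr2 the brightest of each. Of 4 adipocyte markers 1 passed. Median signal per array lay between 36.7 and 41.1. An exact two-sided permutation test on groups this small cannot give a p below 0.333, and precision is limited by having only 4 arrays.

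Transcription start windows are shown because the pyrimidine tract at the start of the transcript is the sequence feature that ribosomal protein genes are best known to share. Sequences came from RefSeq (build GRCr8), which held a start window for 43 of the 48 genes. Each line gives 40 bases before and 20 bases after the annotated start, 5′ to 3′ on the gene's strand, with the longest run of C and T near the start in capitals.
Rps23, chr2:23814477-23814536, plus strand: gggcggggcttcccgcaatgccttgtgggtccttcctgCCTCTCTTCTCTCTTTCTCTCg
Rpl35a, chr11:81235002-81235061, minus strand: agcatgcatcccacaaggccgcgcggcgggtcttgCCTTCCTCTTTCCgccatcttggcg
Rpl3, chr7:113507971-113508030, minus strand: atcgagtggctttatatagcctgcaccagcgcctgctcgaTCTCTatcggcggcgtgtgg
Rps24, chr16:96477-96536, plus strand: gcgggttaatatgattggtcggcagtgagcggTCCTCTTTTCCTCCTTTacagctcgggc
Rpl19, chr10:83519024-83519083, plus strand: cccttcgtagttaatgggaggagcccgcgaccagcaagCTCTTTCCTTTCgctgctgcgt
Rpl5, chr14:1995206-1995265, minus strand: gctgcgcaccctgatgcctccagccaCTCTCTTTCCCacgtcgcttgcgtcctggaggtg
Rplp0, chr12:46718371-46718430, minus strand: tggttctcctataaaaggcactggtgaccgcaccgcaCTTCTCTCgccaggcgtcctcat
Rpl21, chr12:13386134-13386193, minus strand: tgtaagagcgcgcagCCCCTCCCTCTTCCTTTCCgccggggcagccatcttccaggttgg
Rps6, chr5:106420521-106420580, minus strand: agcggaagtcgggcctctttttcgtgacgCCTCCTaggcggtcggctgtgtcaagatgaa
Rpl11, chr5:153560783-153560842, minus strand: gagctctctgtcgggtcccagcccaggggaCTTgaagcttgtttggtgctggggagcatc
Rpl18, chr1:105325230-105325289, plus strand: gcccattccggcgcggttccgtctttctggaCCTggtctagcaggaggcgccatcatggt

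A run counted as near the start if it overlapped the bases from 10 before to 10 after it. Of the 43 members, 27 (62.8%) had a run of 8 or more pyrimidines there, against 13.2% of all 33469 start windows in the table. Some counted runs end before the annotated first base, as in Rpl21 and Rpl5. The share is therefore not that of transcripts annotated to begin with a tract. The run was 21 bases in Rps23 and 17 in Rps24, but 3 in Rpl11 and Rpl18, whose annotated starts lie in windows without a long tract. The motif CCGGAAG, bound by ETS family factors, lay on either strand of the region from 250 bases before to 50 after the start in 10 of 43 members (23.3%) and 8.75% of all regions. AAGATGGC, the core of the YY1 motif, was in 9.3% and 3.17%, and TATAAA in 14.0% and 14.2%. CTTTCC, itself a pyrimidine stretch that can overlap the runs, was in 44.2% and 26.4%. A match describes these letters only, and the annotated starts were not checked against these samples.

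None of the ribosomal protein genes rose or fell with GDNF by the test across the whole array. Of the 46 members tested, 43 had a higher mean log2 signal in GDNF ovaries and 3 a lower one. The median difference was 0.050 on the log2 scale, where the median of all 18625 tested probe sets was -0.007 (9038 above 0 and 9586 below). The limma fit called 0 of 46 members and 0 of 18625 probe sets (0%) at an adjusted p under 0.05. At an unadjusted p under 0.05 it held 0 members and 508 of all probe sets. The adjusted p of every member tested was 0.999. With the replicate number as a block, 8 probe sets of the array were called and none was a member. The small tilt of the median rested on single arrays. It was 0.081 without GDNF replicate 1, 0.002 without GDNF replicate 2, 0.103 without control replicate 1 and -0.019 without control replicate 2. Without that last sample 17 of 46 members were above 0, and without GDNF replicate 2, 24 were. After quantile normalization 30 of 46 members were above 0 and the median was 0.017. In bulk ovaries, fewer cells of a type and less RNA per cell cannot be told apart. The summed signal of the 6 oocyte markers was 7365 and 8978 in GDNF samples, against 5724 and 6948 in control samples. That of 4 theca and steroidogenic markers was 639 and 602 in GDNF samples, against 502 and 444 in control samples. Surface epithelium markers (6 genes) summed to 6567 and 6126 in GDNF samples, against 7934 and 6985 in control samples, and endothelial markers (3 genes) to 1011 and 961 in GDNF samples, against 1126 and 1106 in control samples. The groups did not overlap in any of these 4 sums, but they overlapped in the sums of granulosa, leukocyte, erythroid and adipocyte markers. In the 4 sums without overlap, the brightest genes had mean signals of 2213.3 (Ooep), 453.6 (Hsd3b1), 3580.9 (Krt19) and 854.7 (Kdr). Bright genes weigh most in such sums. Cyp11a1, among the theca and steroidogenic markers, lay below the filter. Of all tested probe sets, 13.4% had both GDNF samples above both control samples and 16.6% had both below. These are shares of single probe sets, not of sums. The part of the marker sums in the ribosomal values was not tested.

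**Figure D1:**
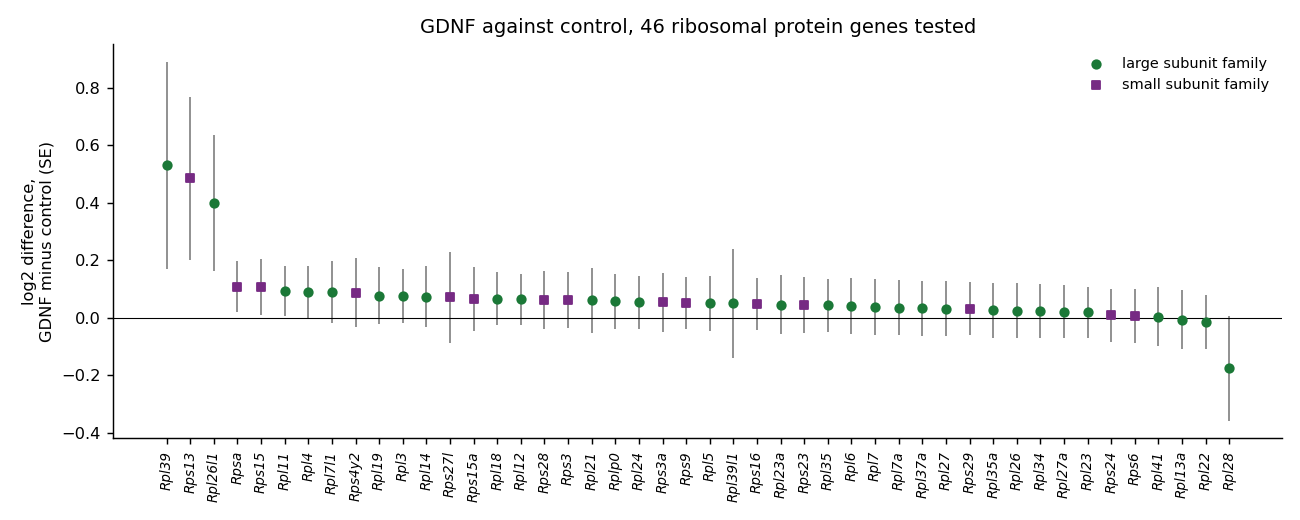
Log2 difference in signal, GDNF minus control (vertical axis), for the 46 ribosomal protein genes tested, ordered by value, with limma's standard error as bars (n = 2 samples in each group). Most members lie within 0.11 of 0, and the 4 farthest from it (Rpl39, Rps13, Rpl26l1 and Rpl28) are dim probe sets with long bars.

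The members fell into a bright group and a dim group. The probe sets of 38 genes had a mean signal of 3203 or more, up to 7513 for Rps23, and those of the other 10 had 741 or less. Signals of different probe sets do not rank transcripts, since each set of oligonucleotides has its own brightness. In the 38 bright members the standard error of the GDNF difference was 0.087 to 0.113, and the differences themselves ran from -0.015 (Rpl22) to 0.108 (Rpsa). In 36 of these 38 the mean was higher in GDNF ovaries, and in 4 the groups did not overlap. Over all 48 members, GDNF samples were both above control samples in 6 (13.4% of all tested probe sets had that order) and both below in 2 (16.6% of all). The share of members with both GDNF samples higher (12.5%) was therefore close to that of the array, while the share with both lower (4.17%) was smaller. By mean alone, 9038 of the 18625 tested probe sets were higher in GDNF ovaries, so the members' direction was not that of the array. Bright probe sets in general also differed from the array. Of 90 others with a signal of 3000 or more, 56 were higher and 34 lower in GDNF ovaries (median 0.022). Both GDNF samples were above the controls in 11.1% of these 90 and below them in 3.33%. The scarcity of members with both lower is thus shared by other bright probe sets.

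**Figure D2:**
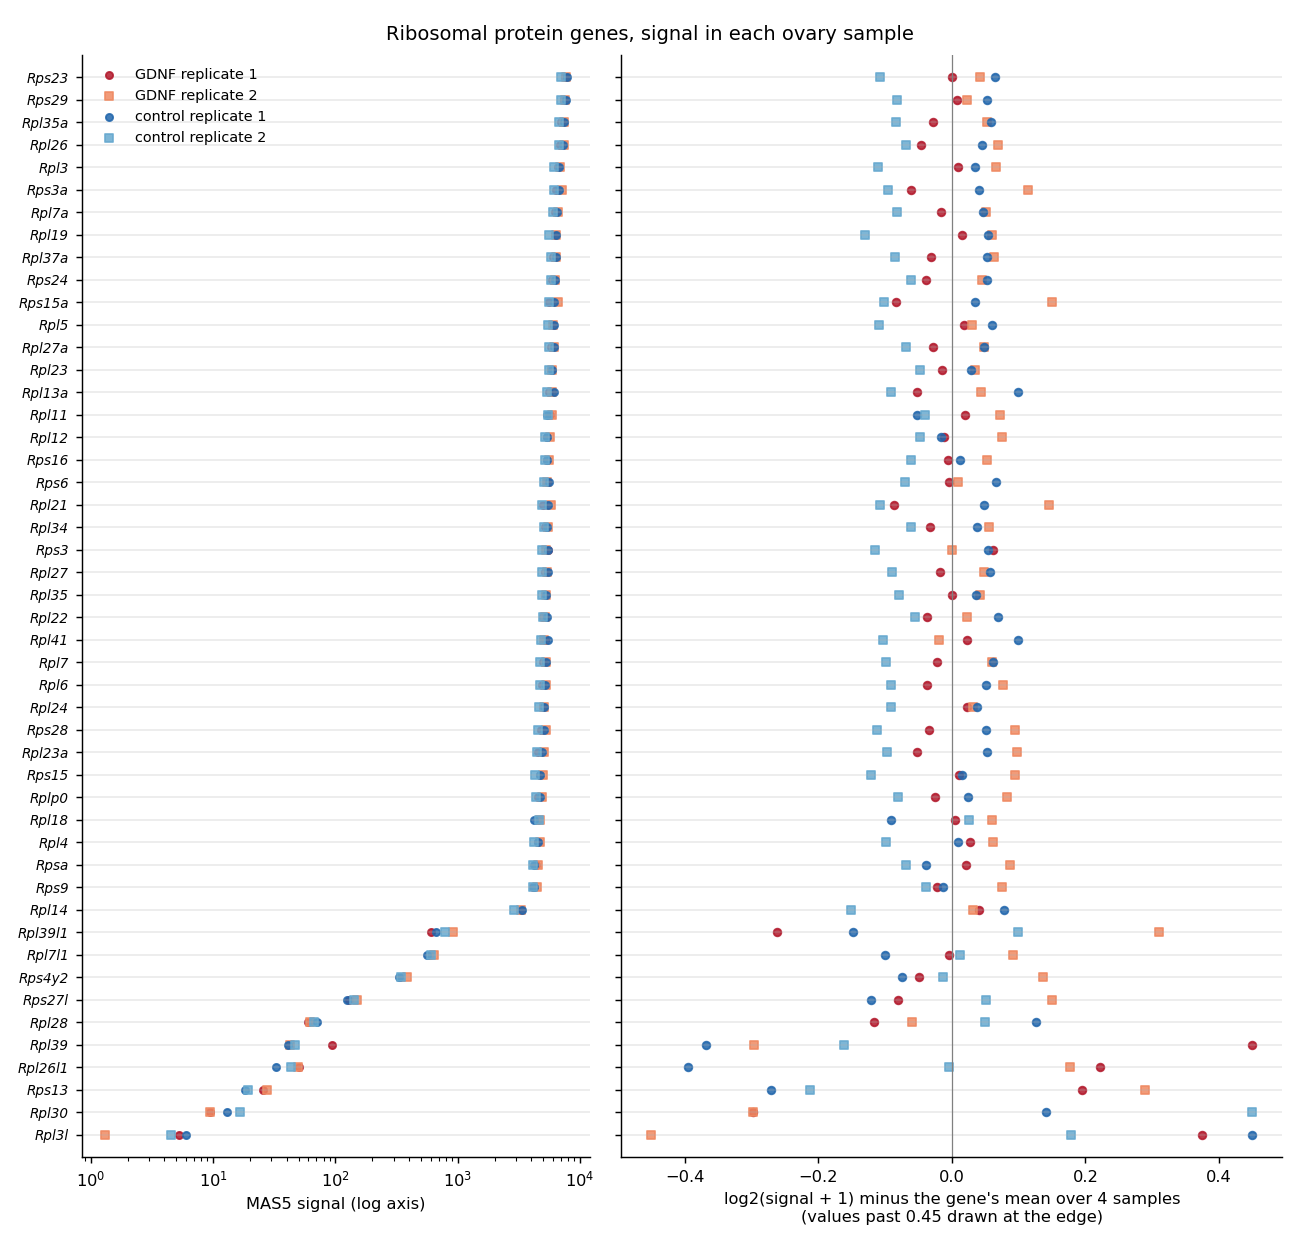
Signal of each of the 48 ribosomal protein genes in the 4 samples (left, log axis) and the deviation of each sample's log2(signal + 1) from the gene's mean (right), with genes ordered by mean signal. In the bright genes the control replicate 2 point (light blue square) lies farthest left in 36 of 38, while in the dim genes at the bottom it is the lowest in 0 of 10.

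In the bright members, the 2 samples of 1 treatment lay farther apart, at the median, than the means of the treatments did. Relative to each gene's mean over the 4 samples, the 38 bright members had a median log2 deviation of -0.016 and 0.058 in GDNF replicates 1 and 2, and 0.048 and -0.087 in control replicates 1 and 2. GDNF replicate 2 exceeded GDNF replicate 1 in 35 of 38 (median 0.066). Control replicate 1 exceeded control replicate 2 in 36 of 38 (median 0.136). The median treatment difference in the same genes was 0.046. That value compares means of 2 samples, which vary less than single samples, so it is not a like measure to these gaps. The summed signal of the 38 bright members was 206804 and 217632 in GDNF replicates 1 and 2, and 214654 and 197129 in control replicates 1 and 2. The common order thus pairs 1 sample of each group, GDNF replicate 2 with control replicate 1, against GDNF replicate 1 with control replicate 2. This crossed pairing follows neither the treatment nor the replicate number, and nothing in the labels names it.

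Every probe set without ties has its highest 2 samples in 1 of 6 possible orders, so the members can be sorted by them. In 30 of the 48 members, all of them bright, GDNF replicate 2 and control replicate 1 were both above the other samples, an order held by 12.1% of all tested probe sets. The reverse crossed order was found in 1 member, the dim Rpl39 (13.9% of all tested probe sets). The samples of replicate 2 were both higher in 5 members (20.9% of all), 4 of them dim, and those of replicate 1 in 4 (22.6% of all). Rpl3l, 1 of the last 4, was not tested. The crossed difference, GDNF replicate 2 and control replicate 1 minus the others, had a median of 0.098 over the 38 bright members and was above 0 in 37. The difference of replicate 2 minus replicate 1 had a median of -0.024 in the same genes, with 11 above 0.

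**Figure D3:**
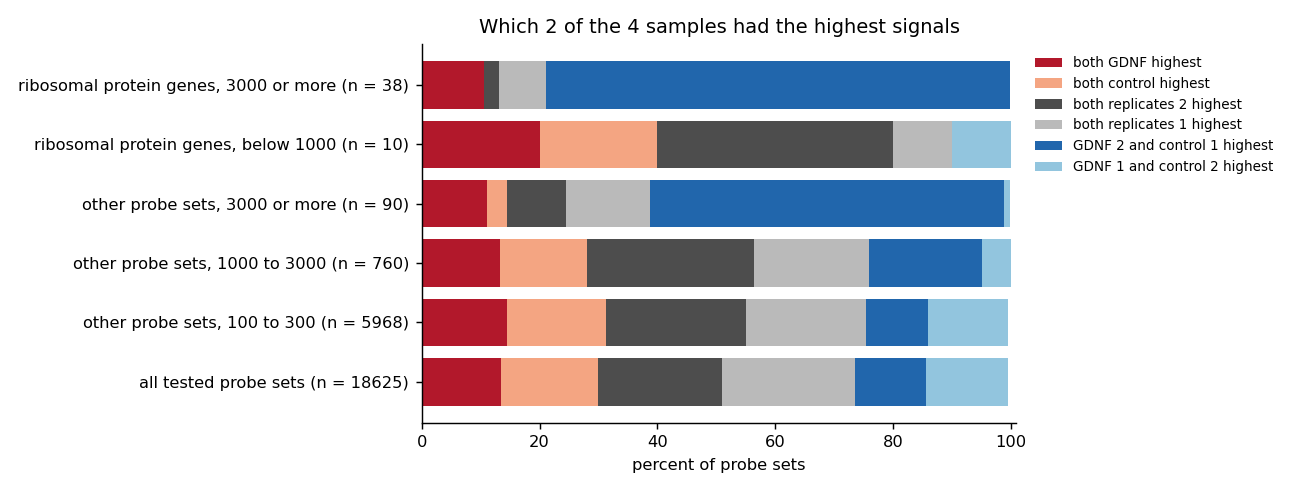
Percent of probe sets in each of the 6 orders of the samples (colours name the pair with the highest signals), by set and mean signal, with the number of probe sets in brackets and ties left out. The order with GDNF replicate 2 and control replicate 1 highest (dark blue) takes 78.9% of the bright ribosomal protein genes and 12.1% of all probe sets tested, and 54 of the 90 other bright probe sets.

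The same order was present in other bright probe sets and in control probe sets that measure no ovarian RNA. For this comparison, chosen after the values were seen, 90 probe sets with a mean signal of 3000 or more and no ribosomal protein symbol were taken. Some of these carry no symbol in the annotation, so they may include further ribosomal sequences. Their median crossed difference was 0.107, with 84 of 90 above 0, and 54 had the full crossed order. Dimmer probe sets had smaller values, with a median of 0.044 at signals of 1000 to 3000, 0.022 at 300 to 1000, -0.003 at 100 to 300 and -0.034 below 100.

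The hybridization controls are bacterial and phage transcripts (bioB, bioC, bioD and cre) that standard Affymetrix procedures add to every hybridization mix. All 18 of their probe sets had a crossed difference above 0, with a median of 0.211 and a range from 0.14 to 0.30, and 17 had the full crossed order. The lowest sample was GDNF replicate 1 in 14 of these 18 probe sets and control replicate 2 in 4. In the 38 bright members, control replicate 2 was lowest in 36 and GDNF replicate 1 in 0, so the lowest sample was not the same. Between treatments the hybridization controls differed by a median of 0.030. One cre probe set, as bright as the members, had signals of 6129 and 6928 in GDNF replicates 1 and 2, and 6867 and 5861 in control replicates 1 and 2. Over the 46 members tested, the crossed median without rescaling was 0.093, with 42 above 0, and that of all tested probe sets was 0.0. Scaling each array to these controls shifts all probe sets alike. The members' crossed median then became -0.128, while that of all tested probe sets became -0.221. With quantile normalization, which adjusts by brightness, the members' median was -0.014, with 16 of 46 above 0, and that of all tested probe sets was 0.012. RNA quality values had the same pairing at their top. Beta-actin signal at the 3′ end over that at the 5′ end was 2.62 and 3.61 in GDNF replicates 1 and 2, and 3.76 and 3.34 in control replicates 1 and 2. That of Gapdh was 1.11 and 1.44 in GDNF replicates, and 1.28 and 1.22 in control replicates. Their part in the members' order was not tested.

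**Figure D4:**
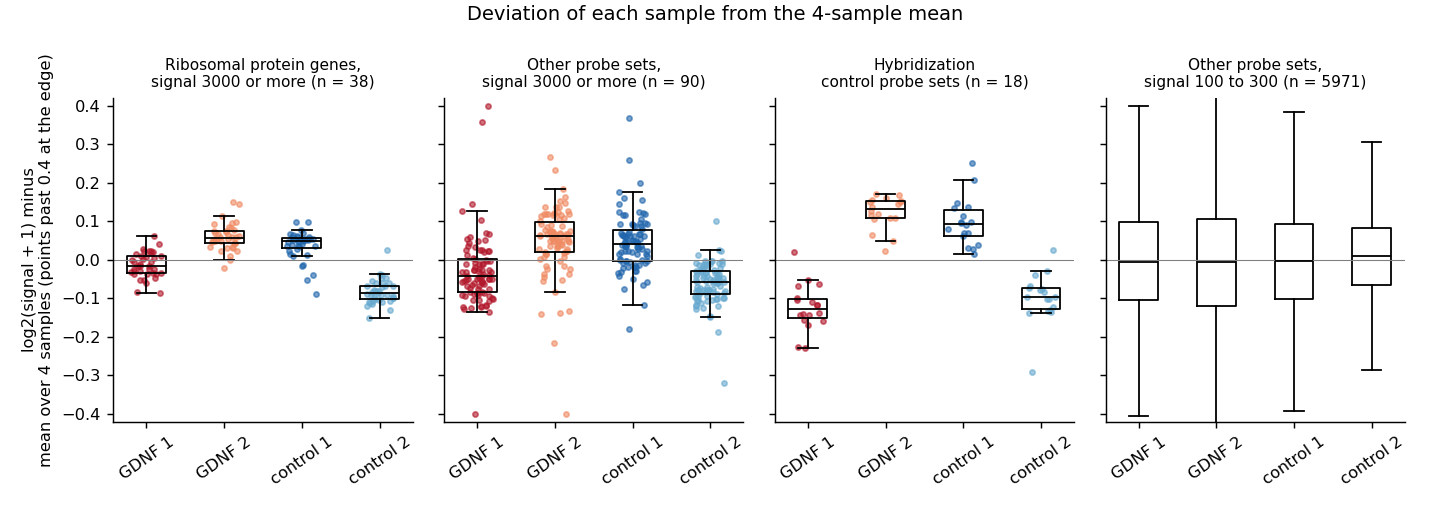
Deviation of each sample's log2(signal + 1) from the 4-sample mean, as points and as boxes (median and quartiles, with whiskers by Tukey's rule), for bright ribosomal protein genes, other bright probe sets, hybridization controls and probe sets of middle brightness. GDNF 2 and control 1 lie above 0 and control 2 below 0 in the first 3 panels, and medians are near 0 in the last. The GDNF 1 medians in the first 3 panels are -0.016, -0.043 and -0.128.

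**Figure D5:**
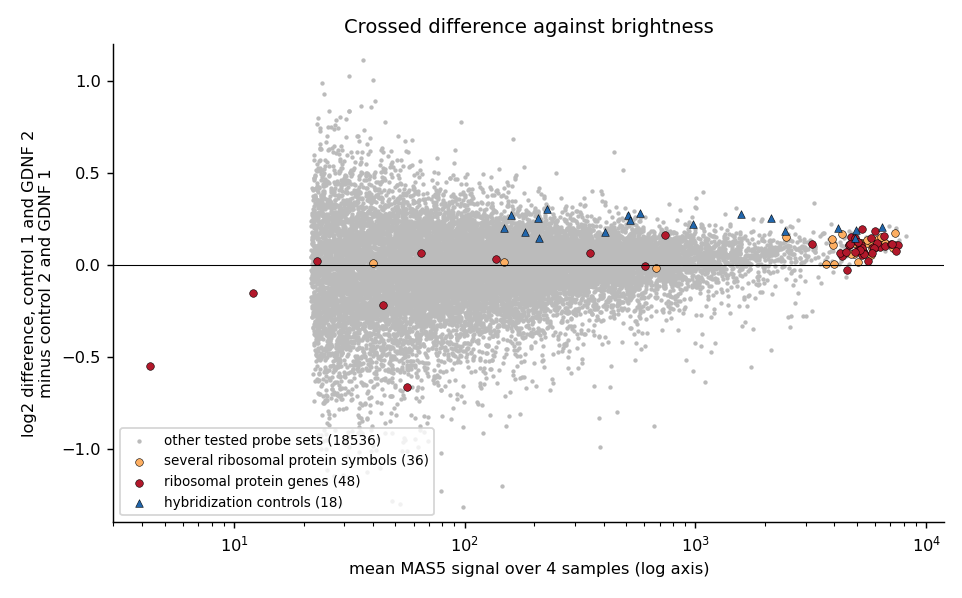
Crossed log2 difference (vertical axis) against mean MAS5 signal (log axis) for all tested probe sets (grey), ribosomal protein genes (red), probe sets with several ribosomal protein symbols (orange) and hybridization controls (blue triangles). Bright ribosomal protein genes form a tight cluster just above 0 among other bright probe sets, and the hybridization controls lie above 0 at every brightness.

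Genes of small-subunit proteins at the decoding site and the messenger RNA channel had GDNF differences within the range of the bright members. Rps23, whose product lies beside the decoding centre, had signals of 7508 and 7730 in GDNF samples, against 7849 and 6964 in control samples (log2 difference 0.043, SE 0.097). Rps15, whose product reaches into the decoding centre, had 4720 and 5003 in GDNF samples, against 4734 and 4306 in control samples (0.106, SE 0.096). Rps3, which forms part of the channel where messenger RNA enters, had 5470 and 5241 in GDNF samples, against 5441 and 4843 in control samples (0.061, SE 0.098). In each of these the treatment groups overlapped, and control replicate 2 was the lowest sample. Rps28, near the exit of that channel, had a crossed difference of 0.146 and a GDNF difference of 0.061.

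Rps6, the S6 kinase substrate, was nearly equal in the groups. It had signals of 5327 and 5380 in GDNF samples, against 5593 and 5090 in control samples (log2 difference 0.005, SE 0.093). Both GDNF values lay between the control values. Rpsa, a small-subunit protein also known as the laminin receptor, had 4364 and 4565 in GDNF samples, against 4183 and 4098 in control samples (0.108, SE 0.088). Its groups did not overlap, and without each sample in turn its difference ran from 0.08 to 0.14, at an unadjusted p of 0.259 (limma adjusted p = 0.999). The other 2 probe sets of Rpsa overlapped, at 0.06 and 0.10, and had crossed differences of 0.13 and 0.20. Rps9, Rps16, Rps24, Rps29 and Rps3a, further small-subunit proteins, had GDNF differences of 0.008 to 0.053, and in all 5 the crossed order held. Rps15a had the second largest crossed difference of the members, 0.185, with 5622 and 6608 in GDNF samples, against 6101 and 5552 in control samples.

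Among large-subunit genes, Rpl3 encodes a protein that reaches toward the peptidyl transferase centre, where peptide bonds form. It had signals of 6634 and 6901 in GDNF samples, against 6756 and 6108 in control samples (0.075, SE 0.095). A dimmer probe set of Rpl3, of the type that shares probes with other transcripts, had 258 and 292 in GDNF samples, against 356 and 268 in control samples (-0.17), so the probe sets of that gene disagreed in direction. Rpl4, whose product extends into the exit tunnel of the growing peptide, had 4563 and 4670 in GDNF samples, against 4505 and 4179 in control samples (0.089, SE 0.091), with no overlap. At the mouth of the tunnel, Rpl23a had 4560 and 5062 in GDNF samples, against 4904 and 4420 in control samples (0.045, SE 0.103). Rpl26 and Rpl35, also at the tunnel exit, had differences of 0.024 and 0.043. All 3 of these exit-site genes had the crossed order, with crossed differences of 0.150 for Rpl23a, 0.115 for Rpl26 and 0.078 for Rpl35.

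Rpl5 and Rpl11 encode the proteins that bind 5S ribosomal RNA and that, when ribosome assembly stalls, inhibit Mdm2 and so stabilise p53. Rpl11 had signals of 5690 and 5905 in GDNF samples, against 5414 and 5462 in control samples (log2 difference 0.092, SE 0.087), with no overlap between the groups. Rpl5 had 6004 and 6058 in GDNF samples, against 6182 and 5501 in control samples (0.049, SE 0.096), and its groups overlapped. These partners therefore had different orders of samples, with a crossed difference of 0.020 in Rpl11 and 0.091 in Rpl5. The control probe set for 5S ribosomal RNA had 169 and 169 in GDNF samples, against 188 and 143 in control samples. In the wider surveillance list, 7 genes of 8 were tested, with 5 higher and 2 lower in GDNF ovaries and 0 called. Mdm2, the ubiquitin ligase of p53, had 411 and 476 in GDNF samples, against 403 and 390 in control samples (0.16, SE 0.12). Mdm4, its relative, had a difference of 0.21 (SE 0.17). Ccng1, a p53 target, had 457 and 417 in GDNF samples, against 547 and 524 in control samples (-0.29, SE 0.11, unadjusted p = 0.0309, limma adjusted p = 0.999). Cdkn1a, the p53 target that encodes the cell cycle inhibitor p21, had -0.09 (SE 0.18).

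The stalk of the large subunit recruits elongation factors. Rplp0, its base, had signals of 4525 and 4875 in GDNF samples, against 4681 and 4355 in control samples (0.057, SE 0.095). Rpl12, which sits at the base of the stalk, had 5351 and 5685 in GDNF samples, against 5336 and 5220 in control samples (0.064, SE 0.089). The groups did not overlap in Rpl12 and they overlapped in Rplp0. Among the remaining large-subunit genes, Rpl21 had the largest crossed difference of all members, 0.194, with 4967 and 5834 in GDNF samples, against 5451 and 4893 in control samples. Rpl18 was the 1 bright member with a crossed difference below 0 (-0.031), at 4529 and 4705 in GDNF samples, against 4240 and 4596 in control samples. Rpl41, which encodes the smallest ribosomal protein, and Rpl14 had the lowest replicate 2 minus replicate 1 differences among the bright members, -0.123 and -0.119. Rpl13a and Rpl22, an RNA-binding protein of the large subunit, were the bright members with lower means in GDNF ovaries, by -0.007 (SE 0.102) and -0.015 (SE 0.093).

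The start windows can be set beside these values. Of the bright members with a window, 23 had a run of 8 or more pyrimidines near the start and 11 a shorter one. The median GDNF difference was 0.049 with the long runs and 0.053 with the shorter ones, and the median crossed difference 0.098 and 0.075. Bright members with a run of 3 bases differed among themselves, with crossed differences of 0.020 in Rpl11, -0.031 in Rpl18, 0.080 in Rpl41 and 0.115 in Rpl26. Genes of the short-run set reached up to 0.16, so the ranges overlapped.

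The dim members are paralogs of ribosomal proteins and probe sets of well-known genes that gave little signal. Rpl39l1, named as a relative of the tunnel protein gene Rpl39, had 611 and 907 in GDNF samples, against 661 and 784 in control samples, and its difference of 0.409 between replicate 2 and replicate 1 was the highest of the members. Rpl7l1, a relative of Rpl7, had 599 and 640 in GDNF samples, against 560 and 606 in control samples (0.088, SE 0.107). Rps27l, a paralog of Rps27 known as a p53 target, had 129 and 151 in GDNF samples, against 125 and 141 in control samples (0.070, SE 0.158). In these 3 and in Rps4y2 (338 and 384 in GDNF samples, against 332 and 346 in control samples) both replicate 2 samples were above both replicate 1 samples. That order differs from the one of the bright members. Rpl7l1 had another probe set with the same GDNF difference of 0.09 and a crossed difference of -0.19.

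Rpl26l1, a close relative of Rpl26, had 50.8 and 49.2 in GDNF samples, against 32.8 and 43.3 in control samples (log2 difference 0.40, SE 0.236). Its groups did not overlap, and its unadjusted p was 0.135. Rpl39, whose product lines the exit tunnel, had 94.3 and 42.8 in GDNF samples, against 40.7 and 47.1 in control samples (0.53, SE 0.360). GDNF replicate 1 alone was high, and without it the difference was -0.03. Rps13 had 25.8 and 27.6 in GDNF samples, against 18.4 and 19.2 in control samples (log2 difference 0.48). Its control values lay below the filter at a signal of about 21.4, so it passed only through the GDNF samples, and its difference supports nothing. Rpl28 had 59.6 and 62.0 in GDNF samples, against 70.7 and 67 in control samples (-0.18, SE 0.182).

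Rpl30 (9.4 and 9.4 in GDNF samples, against 13.1 and 16.5 in control samples) and Rpl3l, a paralog of Rpl3 typical of muscle, lay below the filter and were not tested. Rpl3l had 5.3 and 1.3 in GDNF samples, against 6.0 and 4.5 in control samples. For 3 of the dim genes the array also holds a bright probe set that carries the gene's symbol beside others. A probe set annotated to Rps13 and 3 other symbols had 5084 and 5369 in GDNF samples, against 5358 and 4819 in control samples (0.04). One annotated to Rpl28 and 2 other symbols had 5370 and 5860 in GDNF samples, against 5796 and 5237 in control samples (0.03). One annotated to Rpl30 and several related symbols had 5755 and 5943 in GDNF samples, against 6120 and 5579 in control samples. The differences of 0.48 in Rps13 and -0.18 in Rpl28 thus stand beside 0.04 and 0.03 in these bright probe sets, whose signal may include the copies.

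Ribosomal protein genes have many processed copies in the genome, and 36 probe sets carried several symbols, all of ribosomal protein families or loci with a provisional name. They were left out of the members because their signal cannot be assigned to 1 gene. Their median GDNF difference was 0.040, with 26 above 0 and 10 below, and 0 of 36 were called. The 33 of them with a signal of 1000 or more had a median crossed difference of 0.109, with 28 in the full crossed order. With these probe sets added to the members tested, the medians were 0.046 for GDNF and 0.101 for the crossed pairs over 82 probe sets.

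Other parts of the translation machinery were compared with the members through lists of related genes. Of 13 tested elongation factors and other TOP mRNA genes, 8 were higher and 5 lower in GDNF ovaries (median 0.05), and 0 were called. The groups did not overlap in 4 higher genes and 1 lower gene (13.4% and 16.6% of all tested probe sets had these orders). Eef1d, a subunit of the elongation factor 1 exchange complex, had 0.15 (SE 0.10), with 1512 and 1719 in GDNF samples, against 1481 and 1422 in control samples. Eef2, the translocation factor, had -0.10 (SE 0.09), with 2161 and 2282 in GDNF samples, against 2457 and 2311 in control samples. The initiation factor subunits Eif3h (0.11) and Eif3f (-0.08) were the others at the ends of that list. Rack1, a small-subunit scaffold outside the naming pattern, had 0.03 (SE 0.10) and the crossed order.

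Of 48 tested ribosome biogenesis and RNA polymerase I genes, 32 were higher and 16 lower (median 0.04), and 0 were called. The groups did not overlap in 14 higher and 5 lower genes (13.4% and 16.6% of all tested probe sets had these orders). Riok1, a kinase of small-subunit maturation, had 389 and 454 in GDNF samples, against 343 and 287 in control samples (0.42, SE 0.14, unadjusted p = 0.0198, limma adjusted p = 0.999). Emg1, a methyltransferase of 18S ribosomal RNA, had 0.36 (SE 0.19). Polr1a, the largest subunit of RNA polymerase I, had -0.22 (SE 0.19) and Utp18, of the small-subunit processome, -0.19 (SE 0.16). Their median crossed difference was 0.00, with 24 of 48 above 0, at a median signal of 281.

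Of 27 tested initiation factors, 19 were higher and 8 lower in GDNF ovaries (median 0.04, 0 called). The groups did not overlap in 4 higher and 5 lower factors (13.4% and 16.6% of all tested probe sets had these orders). Eif4a1, the helicase of the cap-binding complex, had 2137 and 1453 in GDNF samples, against 1461 and 1535 in control samples (0.23, SE 0.17), with GDNF replicate 1 alone high. Eif4e, the cap-binding protein, had 0.20 (SE 0.14), while the scaffolds Eif4g3 (-0.18, SE 0.12) and Eif4g1 (-0.16, SE 0.12) had lower means. Of 73 tested mitochondrial ribosomal protein genes, 47 were higher and 26 lower (median 0.03, 0 called). There was no overlap in 9 higher and 7 lower genes, beside 13.4% and 16.6% of all tested probe sets. Mrpl39 (0.30, SE 0.12) and Mrpl35 (0.21, SE 0.11) stood highest among the mitochondrial genes, and Mrps18c (-0.36, SE 0.15) and Mrps33 (-0.24, SE 0.12) lowest. Of 12 tested genes of mTOR and S6 kinase signalling, 1 was higher and 11 lower (median -0.12), and 0 were called. In 4 of the lower ones the groups did not overlap (16.6% of all tested probe sets). Rps6ka3, a ribosomal S6 kinase of the ERK pathway, was the higher one (0.11, SE 0.16), followed by Rheb, the activator of mTOR (-0.03, SE 0.09). Eef2k (-0.22, SE 0.26) and Rptor, the subunit that defines mTOR complex 1 (-0.19, SE 0.17), were lowest.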

How the data were processed

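The authors deposited linear array intensities, made with MAS5 per the submitters' processing notes (version not given in the sources used here). Whether arrays were scaled to a common target is not stated. If they were, a change in total RNA cannot be seen. The table held 31099 probe sets, of which 57 were control probe sets. Gene names came from the platform annotation held by GEO. Among those that were not controls, 20826 had 1 symbol, 436 several and 9780 none. Of the 48 members, 46 had an Entrez identifier in the RefSeq gene table, with 0 symbols changed.

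Signals were taken as log2(signal + 1), which understates changes of dim genes, and the 18625 probe sets with a mean log2 at or above the 40th percentile were fitted with limma 3.58.1 in R 4.3.3 (group as the only term, mean-variance trend, two-sided). Benjamini-Hochberg adjustment ran over all of them, with a threshold of 0.05. SE is limma's moderated standard error. Median differences over members are descriptions with no test. The script was tested on simulated data. Members and lists were chosen with earlier results of these data known. Named genes were members of special role or paralogs, the 5 brightest and dimmest, those with the smallest p in each direction (8 higher, and the 3 that were lower), and the 5 at each end of the crossed and replicate differences. Of each related list the 2 highest and 2 lowest were named. Other members and their order (Rpl12, Rpl19, Rpl35, Rps9, Rps16, Rps24 and Rps28 among them) were named after their values were seen. Alternatives covered the pseudocount, the filter, the scaling, the variance model, the block, the probe set per gene and each sample left out.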

Additional observations from a re-analysis of the deposited data

How the results depend on the processing

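No member was called under any alternative run. The array as a whole had 0 calls under all of them except the replicate block (8 probe sets called, from 1355 at an unadjusted p under 0.05). The numbers are not stated to pair the samples: deviations of same-numbered samples correlated at 0.32 over the 18625 probe sets, and with 2 pairs nothing further can be checked. With the replicate number as a block the members' median GDNF difference was 0.050, as without it. Blocking on the crossed pairing gave 0 calls. The crossed median of the 46 members tested, 0.093 in the main setting, was -0.014 after quantile normalization and -0.128 with scaling to the hybridization controls. That scaling was chosen after seeing the data and moved the median of all probe sets to -0.221. Leaving out each sample in turn, the members' median ran from -0.019 to 0.103 for GDNF, from -0.096 to 0.046 for replicate number and from 0.053 to 0.129 for the crossed pairs. The replicate median, -0.016 with 17 of 46 above 0, turned to 0.012 (27 of 46) after median centring and 0.008 (26 of 46) after quantile normalization. The remaining alternatives moved these medians by less than the spread between samples and turned none. Of 30 named members tested, 6 turned to a lower mean in GDNF ovaries after quantile normalization: Rpl21 (-0.0015), Rpl26 (-0.005), Rpl35a (-0.02), Rpl41 (-0.05), Rps29 (-0.02) and Rps6 (-0.03). Averaging its probe sets turned Rpl3 to -0.05. Leaving out 1 sample turned 19: Rpl13a from -0.10 to 0.09, Rpl14 from -0.04 to 0.19, Rpl21 from -0.06 to 0.18, Rpl22 from -0.08 to 0.05, Rpl23a from -0.03 to 0.12, Rpl26 from -0.03 to 0.08, Rpl35a from -0.05 to 0.10, Rpl39 from -0.03 to 1.09, Rpl39l1 from -0.24 to 0.33, Rpl41 from -0.10 to 0.10, Rpl5 from -0.04 to 0.13, Rps15a from -0.05 to 0.18, Rps23 from -0.04 to 0.13, Rps27l from -0.04 to 0.19, Rps29 from -0.04 to 0.10, Rps3 from -0.02 to 0.14, Rps3a from -0.03 to 0.14, Rps4y2 from -0.01 to 0.18, Rps6 from -0.06 to 0.07. The cause of these turns was not tested. Without _x_at and _s_at probe sets no named member turned. Median SE was 0.095 in the 38 bright members and 0.187 in those below a signal of 1000.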
